A study of Mus musculus with 2 samples.

Results

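The enzymes described here add or remove methyl and acetyl groups on histones and methyl groups on DNA. They were chosen by gene symbol, from a fixed list of 41 of the 32285 genes counted, drawn up with earlier results of these data known. The list holds 15 histone methylation writers, 3 histone acetylation writers, 12 histone demethylases, 5 histone deacetylases and 6 DNA methylation enzymes. Their RNA was followed in tumours of CT26, a mouse colon carcinoma line, grown under the skin of wild-type BALB/c mice that were 5 weeks old at the start. Mice of the WQ-2101 group received 20 mg/kg WQ-2101, which inhibits PHGDH, the enzyme that opens the serine synthesis pathway, into the peritoneum once a day after tumours had reached about 100 mm3. Mice of the vehicle group received vehicle only. Tumours of both groups were taken on day 17 after implantation, dissociated whole and read by droplet single-cell RNA sequencing of 3′ ends, with 1 library per group and 1 batch label for both. How many mice a library holds is not stated in the labels. With 1 library per group no difference between treatments was tested, and every interval below covers counting error only.

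Histone marks are set by opposing enzymes. EZH2 and EZH1, the alternative catalytic subunits of Polycomb repressive complex 2, methylate lysine 27 of histone H3 together with EED and SUZ12, and KDM6A and KDM6B remove that mark. Methyltransferases take the methyl group from S-adenosylmethionine, which one-carbon metabolism supplies, while the demethylases with a jumonji domain and the TET enzymes need 2-oxoglutarate. In macrophages, KDM6B is best known as a gene switched on by inflammatory signals, and DNMT3A and TET2 as regulators of the inflammatory response. The series title speaks of macrophage epigenetic programs under PHGDH inhibition, and the comparison made here asks whether RNA of these enzymes differed between treatments, cell classes and cell states. RNA levels say nothing of enzyme activity or of the marks themselves.

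The WQ-2101 library held 17293 cells after filtering with a median of 8048 UMIs, and the vehicle library 13668 cells with a median of 10742 UMIs. Cells were assigned by their own marker UMIs. This gave 4072 macrophages and monocytes in the WQ-2101 library and 4591 in the vehicle library, 8874 and 6107 tumour cells, and 631 and 563 T cells. Only these 3 classes had 100 cells in each library. Tumour cells had Hmga2 at 1225 CPM (UMIs scaled to a class total of 1000000) in WQ-2101 and 1244 CPM in vehicle, the keratin Krt14 at 212 and 97.6 CPM and Slurp1 at 46.7 and 12.9 CPM. The keratins Krt8, Krt18, Krt7 and Krt19 were below 1 CPM in both libraries and Cd24a was at 1.13 and 1.59 CPM, so the tumour cell label rests on 3 of the 8 markers listed for it. Droplets that passed the gates of more than 1 class and were left out numbered 1486 in the WQ-2101 library, of which 1224 passed as tumour and macrophage, against 246 in the vehicle library, of which 55 did. Other cells of the 2 clusters rich in such droplets stayed in their classes, mostly in WQ-2101. Without those clusters the classes would hold 3511 WQ-2101 and 4471 vehicle macrophages and monocytes, and 8087 and 6079 tumour cells. A total of 73 barcodes occurred in both libraries. Of 41 members, 10 share exonic bases with a gene on the other strand, among them Kdm6b, Sirt1, Dnmt3a, Kdm2b and Tet2. Whether the counting used strand is not stated in the labels, so reads from such pairs may not be told apart.

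Most members were detected in all 3 classes, and the level of many depended on the class. T cells had the highest level for 21 of the 40 members that reached 5 CPM in a class, which compares with 29.8% of the 11564 genes at that level. Tumour cells were highest for 16 members (49.7% of all genes) and macrophages and monocytes for 3 (20.6% of all genes). Macrophages and monocytes had the lowest level for 27 members, against 42.0% of all genes. Counting intervals of the highest class lay above those of both other classes in both libraries for 10 members in T cells (14.0% of all genes), 10 in tumour cells (29.5% of all genes) and 1, the H3 lysine 79 methyltransferase gene Dot1l, in macrophages (11.9% of all genes). The 3 classes also differed in depth: T cells had medians of 2503 and 2887 UMIs in the WQ-2101 and vehicle libraries, macrophages 5889.5 and 7355, and tumour cells 13065 and 16723. The nuclear RNA Malat1 was at 7376 and 6266 CPM in T cells, at 6320 and 6365 CPM in macrophages and at 4320 and 3311 CPM in tumour cells, in the same order of libraries. The part of depth or nuclear RNA in these class differences was not tested.

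Among the writers, T cells stood out for Kmt2a, the H3 lysine 4 methyltransferase gene also known as MLL1. It had 171 CPM in T cells of the WQ-2101 library and 154 CPM in those of the vehicle library, against 49.2 and 43.0 CPM in macrophages. Tumour cells lay between, at 116 and 114 CPM. Prmt1, the main asymmetric arginine methyltransferase gene, had its highest level in tumour cells, at 204 CPM in WQ-2101 and 237 CPM in vehicle. It was at 77.0 and 76.2 CPM in macrophages and at 92.6 and 90.2 CPM in T cells. Kat2a, which encodes the acetyltransferase GCN5, was also highest in tumour cells, with 39.5 CPM in WQ-2101 and 35.8 CPM in vehicle. In T cells Kat2a was at 7.50 CPM in WQ-2101 and 8.97 CPM in vehicle. The ranking for these writer genes was the same in both libraries. Whether intron reads were counted is not stated, which bears on the levels of long genes with much unspliced RNA, among them Kmt2a and Kdm2b, and its part in their class differences was not tested.

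The widest spread between classes among all members was that of Kdm2b, the gene of an H3 lysine 36 demethylase that recruits a variant Polycomb complex to CpG islands. Kdm2b (chr5:122870665-122989823, minus strand, GRCm38) had 310 CPM in T cells of the WQ-2101 library and 443 CPM in T cells of the vehicle library, against 24.4 and 23.9 CPM in macrophages. The ratio of class means was 13.1 on CPM plus 5. NK cells, with 55 and 49 cells, had 242 and 223 CPM of Kdm2b in the WQ-2101 and vehicle libraries. Tumour cells had 34.0 and 35.8 CPM. Kdm6a, the X-linked H3 lysine 27 demethylase gene, was likewise highest in T cells, at 237 and 204 CPM, and lowest in tumour cells, at 59.5 and 58.5 CPM. Kdm5a, an H3 lysine 4 demethylase gene, had 118 and 126 CPM in T cells against 45.3 and 45.9 CPM in macrophages. Its relative Kdm5b had 45.0 and 35.9 CPM in T cells against 12.6 and 15.1 CPM in tumour cells. Kdm1a, which encodes the demethylase LSD1, was highest in tumour cells, with 117 CPM in WQ-2101 and 123 CPM in vehicle, and lowest in macrophages, with 44.9 and 38.9 CPM.

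**Figure D1:**
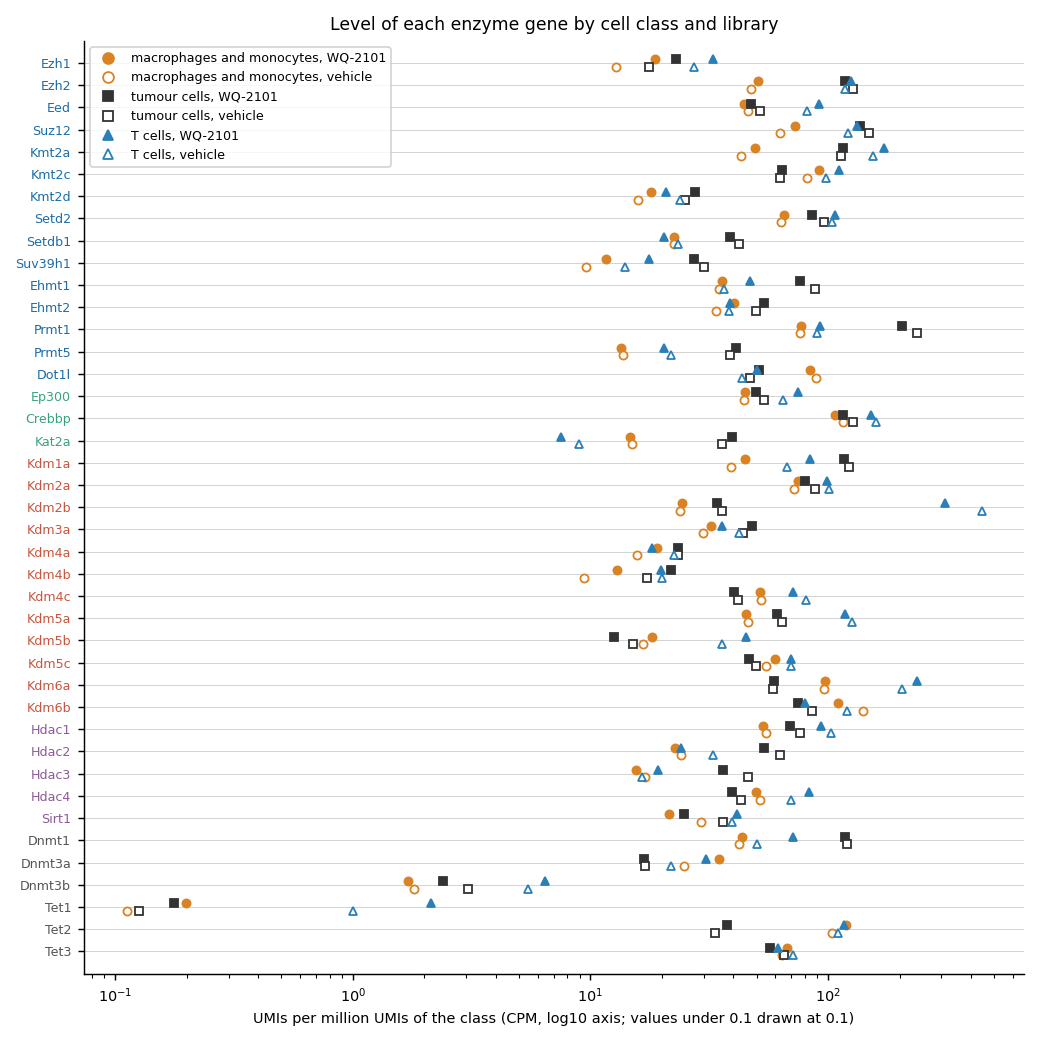
Level of the 41 enzyme genes in macrophages and monocytes, tumour cells and T cells, in CPM on a log10 axis; filled symbols are the WQ-2101 library and open symbols the vehicle library. The blue triangles of Kdm2b stand far to the right of the other symbols, at 310 and 443 CPM, and Tet1 and Dnmt3b are at the left edge.

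Of the DNA methylation enzymes, Dnmt1, the methyltransferase gene that copies methylation after replication, followed tumour cells. It had 118 CPM in WQ-2101 and 121 CPM in vehicle tumour cells, against 43.4 and 42.2 CPM in macrophages. Tet2, which encodes an enzyme that oxidises methylcytosine, was the reverse. It was at 37.7 and 33.5 CPM in tumour cells and at 119 and 104 CPM in macrophages, while T cells had 117 and 110 CPM. Macrophages and T cells were thus alike in Tet2 within counting error, and tumour cells were lower. Dnmt3b, a de novo methyltransferase gene, did not exceed 6.43 CPM in any of the 3 classes. Tet1 had 22 and 14 UMIs in all tumour cells of the WQ-2101 and vehicle libraries and 5 and 4 in all macrophages. Dnmt3b had 297 and 340 UMIs in tumour cells (ratio interval 0.667 to 0.916), 43 and 65 in macrophages and 12 and 11 in T cells, with intervals that included 1 in both leukocyte classes.

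No member reached a 1.5-fold difference between WQ-2101 and vehicle in macrophages and monocytes. This was 0 of the 39 members that averaged at least 5 CPM, where 2.56% of 9403 genes passed the same size (1.97% higher and 0.596% lower). The median log2 ratio of CPM plus 5 was 0.04 over the members and 0.01 over all genes. The counting interval of the ratio lay above 1 for 12 members and below 1 for 4, against 2590 and 2154 of 9403 genes. Differences were therefore small, and more intervals lay above 1 than below 1, as they did over all genes. On the log2 scale 25 of 39 members were above 0, where 52.8% of all genes were. By role these were 11 of 15 methylation writers, 1 of 3 acetylation writers, 9 of 12 demethylases, 4 of 4 measured DNA methylation enzymes and 0 of 5 deacetylases. Many of these values were within counting error of equal. Only 1 deacetylase interval lay below 1, that of Sirt1, and the highest deacetylase log2 ratio was -0.041. Of the DNA methylation enzymes 2 had intervals above 1. Of 12 measured other erasers outside the member list, 8 were above 0.

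Among the macrophage writers, Ezh1 was furthest from equal. It had 18.7 CPM in WQ-2101 and 12.8 CPM in vehicle, a ratio of 1.46 (95% interval 1.28 to 1.67, from 471 and 458 UMIs), while the alternative subunit gene Ezh2 had 50.8 and 47.4 CPM (0.997 to 1.15). Ehmt2, which encodes the H3 lysine 9 methyltransferase G9a, had 40.4 CPM in WQ-2101 and 33.7 CPM in vehicle (ratio 1.20, 1.10 to 1.30). On the lower side were Crebbp, the acetyltransferase gene of CBP, with 107 CPM in WQ-2101 and 116 CPM in vehicle, and Dot1l, with 84.3 and 89.3 CPM. Ep300, the close relative of Crebbp, had 44.8 and 44.4 CPM.

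Among the macrophage erasers, Kdm6b (chr11:69398508-69413675, minus strand, GRCm38) was lower in WQ-2101. It had 110 CPM in WQ-2101 and 141 CPM in vehicle, a ratio of 0.786 (0.750 to 0.823, from 2785 and 5046 UMIs). Kdm6a, which removes the same mark, had 97.6 and 96.3 CPM (0.962 to 1.07). The class I deacetylase gene Hdac3 had 15.6 CPM in WQ-2101 and 17.0 CPM in vehicle, with an interval that included 1. Sirt1 (chr10:63319005-63381704, minus strand, GRCm38), the gene of an NAD-dependent deacetylase, was the lowest of all members. It had 21.4 CPM in WQ-2101 and 29.2 CPM in vehicle, a ratio of 0.734 (0.660 to 0.815). Higher in WQ-2101 were the H3 lysine 9 and lysine 36 demethylase genes Kdm4b, with 12.9 and 9.39 CPM (ratio 1.37, 1.18 to 1.60), and Kdm4a, with 19.0 and 15.7 CPM (ratio 1.22, 1.07 to 1.38).

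Of the DNA methylation enzymes in macrophages, Dnmt3a (chr12:3806007-3914443, plus strand, GRCm38), a de novo methyltransferase gene, was highest relative to vehicle. It had 34.7 CPM in WQ-2101 and 24.7 CPM in vehicle, a ratio of 1.40 (1.28 to 1.54, from 876 and 888 UMIs). Tet2 had 119 CPM in WQ-2101 and 104 CPM in vehicle (1.10 to 1.21). Tet3 and Dnmt1 had intervals that included 1. Cycling cells made up 18.2% of WQ-2101 and 14.4% of vehicle macrophages, and C1q-high cells 14.2% and 11.4%. With each macrophage subset given equal weight in WQ-2101 and vehicle the log2 ratio of Dnmt3a was 0.37, against 0.42 without that step. Equal weights do not even out differences between the libraries inside a subset, whose part was not tested.

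**Figure D2:**
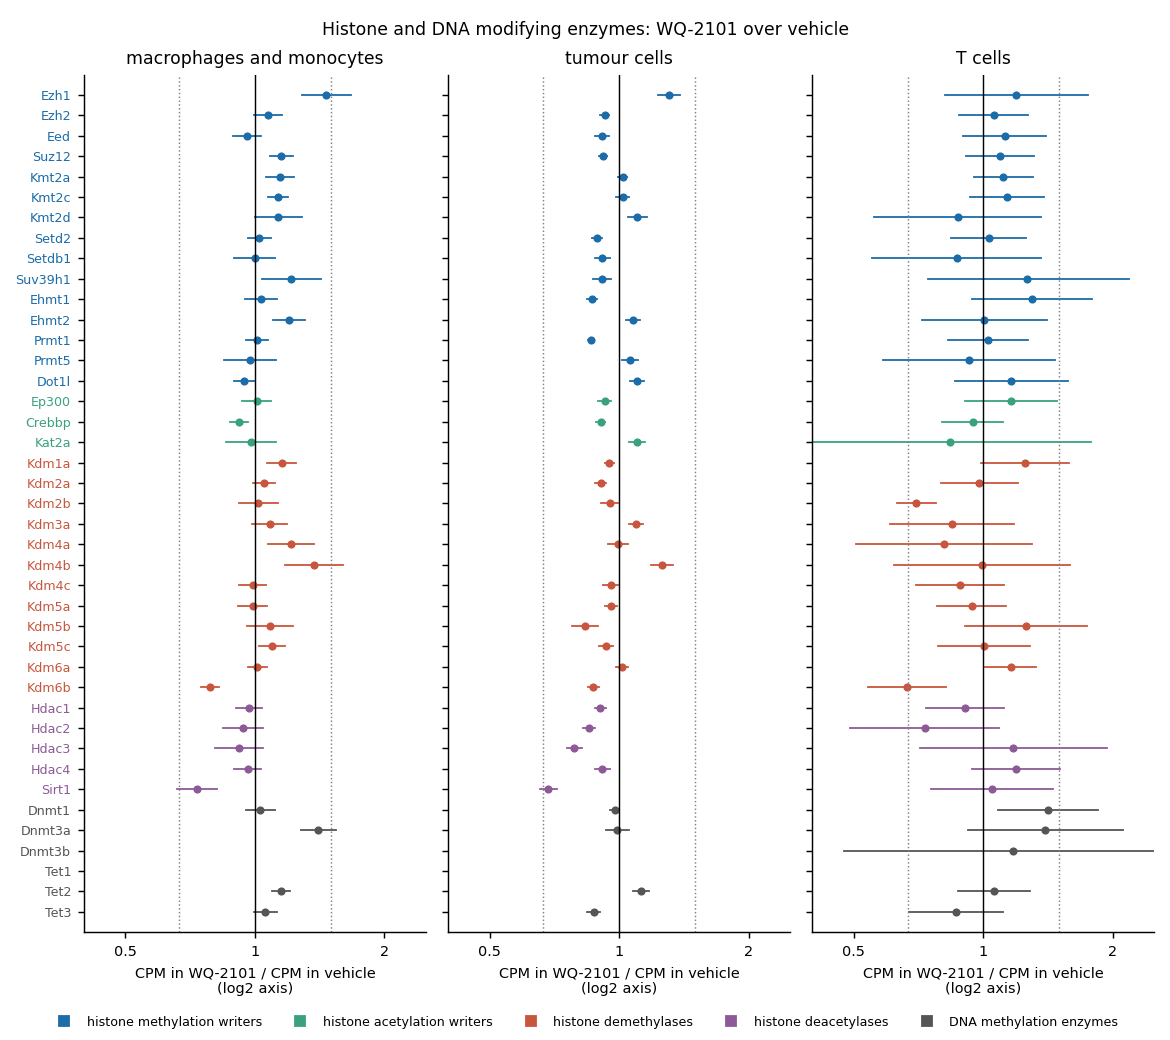
Ratio of CPM in WQ-2101 to CPM in vehicle for each enzyme gene with a mean of at least 5 CPM, on a log2 axis, in macrophages and monocytes, tumour cells and T cells; bars are 95% counting intervals, dotted lines mark 1.5-fold either way and colours the roles. Sirt1 and Kdm6b are left of 1 in macrophages and in tumour cells, the 5 deacetylases (purple) are all left of 1 in tumour cells, and T cell intervals are wide. Calls use CPM plus 5 and the axis plain CPM, so Kdm6b in T cells is just past the line without a call.

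Tumour cells likewise had 0 of 39 measured members past 1.5-fold, where 1.31% of 10010 genes passed (0.859% higher and 0.45% lower). Here the members leaned lower in WQ-2101. Their median log2 ratio was -0.09, against -0.02 over all genes. Counting intervals lay below 1 for 24 members and above 1 for 9, whereas over all genes 4175 were below and 3038 above. All 5 deacetylase genes had counting intervals below 1, and their median log2 ratio was -0.22. Other erasers outside the member list, among them further deacetylases, leaned the other way. Their median log2 ratio was 0.06, with 11 of 16 measured genes above 0, 7 intervals above 1 and 3 below 1.

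Sirt1 was the lowest member in tumour cells as well, with 24.9 CPM in WQ-2101 and 36.3 CPM in vehicle, a ratio of 0.685 (0.653 to 0.718, from 3098 and 4047 UMIs). Hdac3, the catalytic subunit gene of the NCoR corepressor complex, had 36.2 and 46.1 CPM (ratio 0.786, 0.755 to 0.818). Hdac2, a class I deacetylase gene of several corepressor complexes, had 53.6 CPM in WQ-2101 and 63.0 CPM in vehicle (0.823 to 0.880). The other 2 deacetylase genes were nearer to equal. Hdac1 had 69.2 CPM in WQ-2101 and 76.4 CPM in vehicle, and Hdac4 had 39.4 and 43.1 CPM. All 5 stayed short of 1.5-fold, with Sirt1 nearest to it.

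Among tumour cell writers, Prmt1 was lower, with 204 CPM in WQ-2101 and 237 CPM in vehicle (ratio 0.861, 0.847 to 0.876). Ehmt1, which encodes GLP, the partner of G9a, was also lower, with 76.1 and 88.0 CPM (0.841 to 0.890), while Ehmt2 was slightly higher, with 53.6 and 49.7 CPM (1.04 to 1.12). Ezh1 was the highest member, at 23.0 CPM in WQ-2101 and 17.6 CPM in vehicle (ratio 1.30, 1.23 to 1.38). Other Polycomb genes were lower: Ezh2, its alternative, had 118 and 127 CPM, Suz12 136 and 149 CPM, and Eed 47.2 and 51.7 CPM in WQ-2101 and vehicle. Dot1l, at 51.4 and 46.8 CPM, and Kat2a, at 39.5 and 35.8 CPM, were each 1.10 times their vehicle level. Of the erasers, Kdm4b had 21.8 CPM in WQ-2101 and 17.3 CPM in vehicle (ratio 1.26, 1.18 to 1.33), and Tet2 among the DNA enzymes had 37.7 and 33.5 CPM (1.08 to 1.18). Dnmt3a was level, at 16.8 and 17.0 CPM. Cycling cells were 61.0% of WQ-2101 and 56.3% of vehicle tumour cells. Estimated free RNA, from markers of other classes, was 11.1% of tumour cell UMIs in WQ-2101 and 5.91% in vehicle. With that RNA subtracted the median log2 ratio of the members was -0.10.

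Read across both classes, 7 of 39 members lay on the same side of 1 beyond counting error, where 28.3% of 8510 genes did. Ezh1, Ehmt2, Kdm4b and Tet2 were higher, and Crebbp, Kdm6b and Sirt1 were lower, in WQ-2101 macrophages and in WQ-2101 tumour cells. Another 5 members lay on opposite sides, where 11.0% of genes did. Read against these shares, neither count is a result about the enzyme genes. The 2 classes come from the same pair of libraries, so these are not separate replicates.

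T cells, with fewer cells and lower depth, had 0 of 40 members past 1.5-fold on CPM plus 5, where 6.15% of 9649 genes passed (2.92% higher and 3.22% lower). The median log2 ratio was 0.05 over the members and -0.01 over all genes. Kdm6b was the lowest, as it had been low in macrophages, with 79.8 CPM in WQ-2101 and 120 CPM in vehicle (ratio 0.665, 0.538 to 0.819). That ratio of plain CPM was just past 1.5-fold. The Kdm6b log2 ratio of CPM plus 5 was -0.56, just short of it, and under 5 alternatives it passed the 1.5-fold size. Kdm2b followed, with 310 CPM in WQ-2101 and 443 CPM in vehicle (ratio 0.699, 0.629 to 0.777, from 579 and 890 UMIs). CD4 and CD8 T cells were not separated. Hdac2 had 24.1 and 32.9 CPM, with an interval that included 1. At the other end, Dnmt1 had 71.2 CPM in WQ-2101 and 50.3 CPM in vehicle (ratio 1.42, 1.08 to 1.85), beside 12.2% and 9.59% of T cells cycling. Dnmt3a, at 30.5 and 21.9 CPM, and Ehmt1, at 47.1 and 36.4 CPM, had intervals that included 1.

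More members differed with the division state of a cell than with treatment, and the same held over all genes in each class. Cells with UMIs of at least 3 of 6 mitotic genes (Mki67, Top2a, Cdk1, Birc5, Ccnb1, Ube2c) were set against cells with at most 1, within each class and library. In macrophages, 6 members were at least 1.5-fold higher in cycling cells in both libraries, where 6.88% of 9233 genes were, and 1 was lower (0.661% of genes). T cells had 6 higher (8.12% of 9055 genes) and 2 lower (3.88%), and tumour cells 4 higher (4.69% of 9841 genes) and 1 lower (0.782%). Ezh2, Suz12, Suv39h1 and Dnmt1 were higher in all 3 classes, and Kdm5b was lower in all 3. With a stricter cut for cycling, Suz12 no longer passed in T cells. The Polycomb pair of Ezh2 and Suz12, the founding H3 lysine 9 methyltransferase gene Suv39h1 and the maintenance DNA methyltransferase gene were thus higher together in dividing leukocytes and tumour cells.

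On the log2 scale of CPM plus 5, Ezh2 showed the largest step of all members in macrophages and in T cells, while in tumour cells Kdm5b was further from equal in both libraries. In macrophages it had 120 CPM in cycling and 24.9 CPM in other cells of the WQ-2101 library, and 117 against 24.0 CPM in the vehicle library. T cells had 292 against 69.5 CPM in WQ-2101 and 302 against 76.1 CPM in vehicle. In tumour cells the values were 136 against 64.6 CPM in WQ-2101 and 150 against 70.4 CPM in vehicle. Tumour cells that were not cycling thus had more Ezh2 than macrophages that were not. Ezh1, the other catalytic subunit gene, did not follow Ezh2. It had 14.1 CPM in cycling and 36.7 CPM in other T cells of the WQ-2101 library, and 16.6 against 30.7 CPM in the vehicle library, where the interval of the ratio included 1.

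Dnmt1 was at 82.6 CPM in cycling macrophages and 27.2 CPM in other macrophages of the WQ-2101 library, and at 84.5 against 28.0 CPM in the vehicle library. Its level in tumour cells was 135 against 65.0 CPM in WQ-2101 and 138 against 71.0 CPM in vehicle. Suv39h1 had 22.9 CPM in cycling and 6.86 CPM in other macrophages of WQ-2101, and 22.6 against 5.11 CPM in vehicle. Suz12 had 107 against 57.9 CPM in WQ-2101 macrophages and 112 against 47.2 CPM in vehicle macrophages. The log2 ratio in macrophages was 2.07 and 2.08 for Ezh2 and 1.44 and 1.44 for Dnmt1, and 0.83 and 1.16 for Suz12, in WQ-2101 and vehicle. Kdm5b ran the other way: cycling macrophages had 6.82 CPM and others 22.8 CPM in WQ-2101, and 5.51 against 20.3 CPM in vehicle. In tumour cells Kdm5b had 8.59 against 24.5 CPM in WQ-2101 and 9.86 against 28.7 CPM in vehicle.

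Prmt1 and the deacetylase gene Hdac1 were higher in cycling macrophages, with log2 ratios of 0.63 and 0.63 for Prmt1 and of 0.70 and 0.61 for Hdac1 in WQ-2101 and vehicle. Both fell short of the size under median-of-ratios scaling, and Prmt1 also when 2 clusters rich in mixed droplets were left out. In T cells Prmt1 passed as well, and so did the H3 lysine 9 methyltransferase gene Setdb1, whose intervals included 1 in both libraries. Setdb1 no longer passed there with a stricter cut or with doublet calls kept, and the lower call of Ezh1 was also lost with doublet calls kept. Tumour marker genes summed to 99.6 CPM in cycling and 73.1 CPM in other macrophages of the WQ-2101 library, and to 52.1 against 47.5 CPM in the vehicle library, while the tumour cells themselves had 1325 to 1525 CPM. Cycling macrophages also had more UMIs per cell, with medians of 8530 against 5459 in WQ-2101 and 11766 against 6577 in vehicle. The same held in T cells, with 5316 against 2305 in WQ-2101 and 6131.5 against 2691 in vehicle. In tumour cells the medians were 15963 against 9989 in WQ-2101 and 21015 against 11986 in vehicle. Only 77 WQ-2101 and 54 vehicle T cells were cycling. The part of depth in these differences was not tested.

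**Figure D3:**
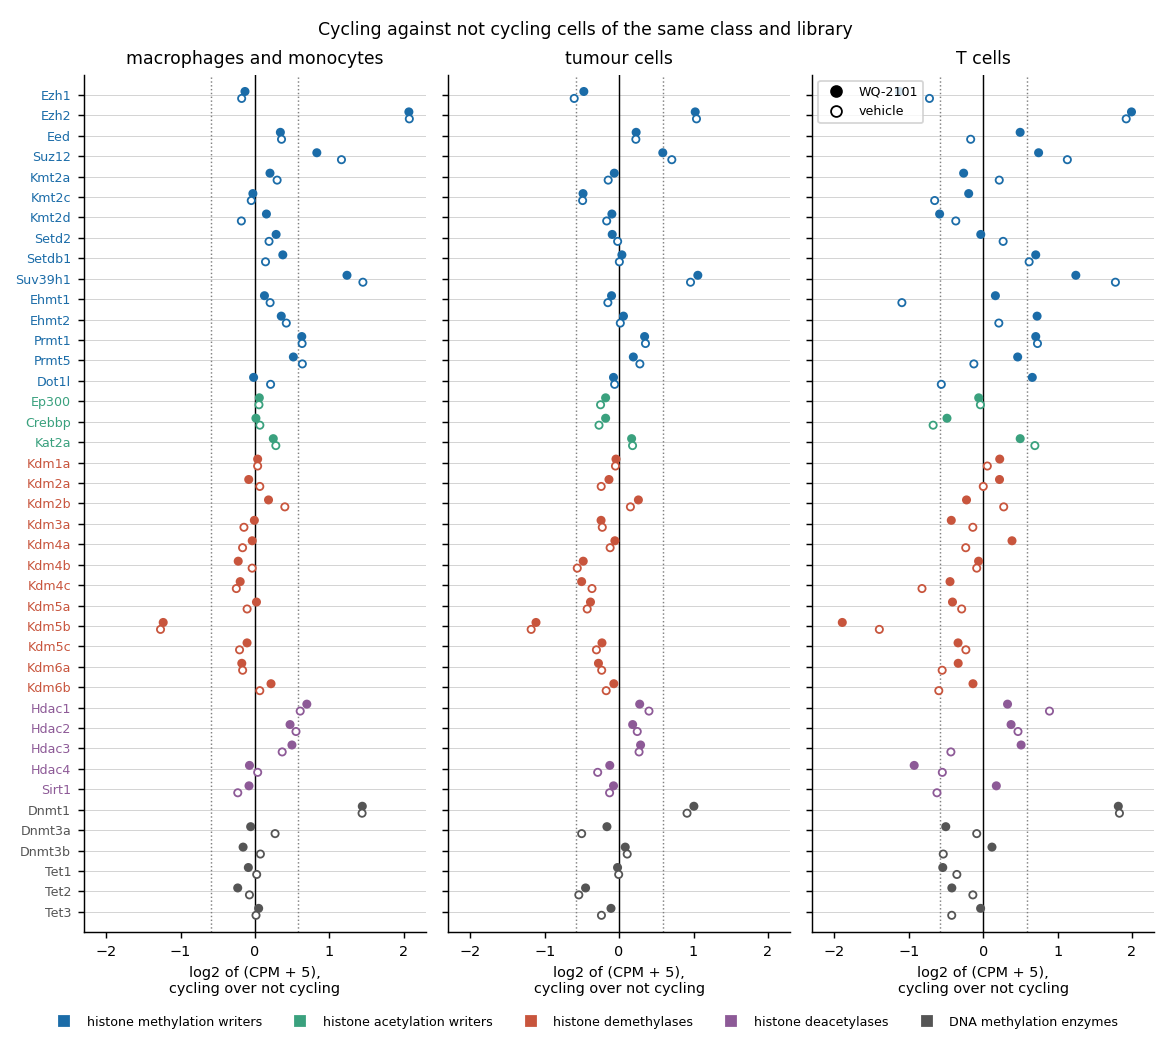
Log2 ratio of CPM plus 5 in cycling over not cycling cells for each enzyme gene, in macrophages and monocytes, tumour cells and T cells; filled points are the WQ-2101 library, open points the vehicle library and dotted lines 1.5-fold either way. Ezh2, Suz12, Suv39h1 and Dnmt1 lie right of the upper line and Kdm5b left of the lower line in all 3 panels.

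The promoters of the 4 genes that were higher in cycling cells of all 3 classes are shown because these genes shared a direction. Each run holds the 250 bases before and 50 bases after a RefSeq transcription start of GRCm38.p6, read 5′ to 3′ on the gene's strand, and matching sequences were in the table for 35 of 41 members. Capitals mark a word searched on both strands: the E2F core word TTCCCGC, its variant form TTGGCGC or its other variant form TTGCCGC, bound by the E2F factors of the cell cycle. The CHR word of mitotic genes was searched as TTTGAA. For Suv39h1 and Dnmt1, which have 2 and 3 listed starts, the start that holds an E2F word is shown. In both genes the listed start at the annotated 5′ end of the gene holds no E2F word. The downstream end of the Suv39h1 window shown did not match any annotated transcript of the gene, unlike those of the other windows shown. The windows are chr6:47594981-47595280 (Ezh2, minus strand), chr11:79992856-79993155 (Suz12, plus strand), chrX:8074312-8074611 (Suv39h1, minus strand) and chr9:20952574-20952873 (Dnmt1, minus strand).
Ezh2: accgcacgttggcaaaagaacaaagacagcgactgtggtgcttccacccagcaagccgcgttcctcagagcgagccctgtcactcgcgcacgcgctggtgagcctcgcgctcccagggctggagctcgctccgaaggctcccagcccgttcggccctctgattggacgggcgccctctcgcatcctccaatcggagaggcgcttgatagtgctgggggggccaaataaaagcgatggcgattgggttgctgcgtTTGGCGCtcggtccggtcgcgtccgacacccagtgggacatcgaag
Suz12: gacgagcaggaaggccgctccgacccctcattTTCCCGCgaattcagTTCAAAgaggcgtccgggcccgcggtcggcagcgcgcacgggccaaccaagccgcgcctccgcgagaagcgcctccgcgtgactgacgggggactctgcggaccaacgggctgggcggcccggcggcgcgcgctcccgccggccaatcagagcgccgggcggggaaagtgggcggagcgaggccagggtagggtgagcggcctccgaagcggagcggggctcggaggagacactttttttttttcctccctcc
Suv39h1: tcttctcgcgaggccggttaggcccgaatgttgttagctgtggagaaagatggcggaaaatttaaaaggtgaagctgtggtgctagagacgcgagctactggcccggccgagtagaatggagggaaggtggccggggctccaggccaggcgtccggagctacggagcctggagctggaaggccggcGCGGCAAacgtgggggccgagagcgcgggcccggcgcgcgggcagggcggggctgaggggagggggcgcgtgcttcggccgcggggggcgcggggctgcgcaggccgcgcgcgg
Dnmt1: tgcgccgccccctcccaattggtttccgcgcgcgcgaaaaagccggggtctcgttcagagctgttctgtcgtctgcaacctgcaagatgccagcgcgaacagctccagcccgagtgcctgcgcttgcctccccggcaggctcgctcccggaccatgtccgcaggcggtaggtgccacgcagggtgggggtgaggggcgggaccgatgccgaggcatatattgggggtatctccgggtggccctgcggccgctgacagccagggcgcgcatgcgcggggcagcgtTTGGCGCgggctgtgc
An E2F word was found for 5 of the 6 members that were higher in cycling cells of any class and have a listed promoter (Ezh2, Suz12, Suv39h1, Prmt1 and Dnmt1, not Setdb1). For Suv39h1 and Dnmt1 the E2F word lies only at the start shown. It was found for 3 of the 29 other members with a listed promoter, namely Kat2a, Kdm3a and Kdm5b, of which Kdm5b was lower in cycling cells. Over all genes with a listed promoter the share was 9.50%, and 8.35% of 32851 promoters of this length. The CHR word was in 2 of the 6, Suz12 and an upstream start of Dnmt1, in 2 of the 29 others, Eed and Dnmt3b, and in 20.2% of all genes. A match of letters shows neither binding nor a cause.

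Macrophages were split by marker genes into 5 subsets, leaving out cycling cells. In WQ-2101 there were 579 C1q-high, 640 MHC class II-high, 273 monocyte, 172 Fn1-Hopx and 443 Mmp12-hypoxia cells, against 524, 462, 412, 536 and 596 in vehicle. Each subset was set against the other 4 in each library, and a difference was kept where it reached 1.5-fold in both. This gave 10 differences across 7 members.

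Dnmt3a was highest in the C1q-high subset and lowest in the monocyte subset. The monocyte intervals overlapped those of the Fn1-Hopx and MHC class II-high subsets in both libraries. In vehicle they also overlapped that of the Mmp12-hypoxia subset. C1q-high cells, marked by complement C1q genes, Mrc1 and Selenop, had 58.6 CPM in WQ-2101 and 49.5 CPM in vehicle, against 22.9 and 18 CPM in the other subsets of each library. It was 1 member of 41 higher there, where 5.16% of 9012 genes were. Monocyte subset cells, marked by Ly6c2, Plac8 and Ccr2, had 13.9 CPM in WQ-2101 and 12.3 CPM in vehicle, against 35.1 and 26.5 CPM in the other subsets (1 member lower, where 3.23% of 8816 genes were). The Dnmt3a intervals of the C1q-high subset did not meet those of any other subset in either library. The demethylase gene Kdm5b was the 1 member lower in C1q-high cells (4.06% of genes lower), at 14.7 and 12.1 CPM against 26.2 and 22.4 CPM. It was also the 1 member lower in MHC class II-high cells (3.39% of 8920 genes lower), at 15.6 and 10.5 CPM against 26.3 and 22.5 CPM. No member was higher in MHC class II-high cells (1.69% of genes higher) or in the monocyte subset (2.71% higher), and none passed in the Fn1-Hopx subset (0.607% of 8892 genes higher and 1.93% lower).

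Mmp12-hypoxia macrophages, which carry Mmp12, Arg1 and the oxygen-responsive genes Vegfa, Bnip3 and Hilpda, differed in the most members. Kdm5b and Sirt1 were higher there (2 members, where 3.45% of 8869 genes were) and Ezh2, Prmt1, Kdm2b and Tet3 lower (4 members, where 6.08% of genes were). Kdm5b had 44.4 CPM in WQ-2101 and 32.1 CPM in vehicle, against 16.9 and 16.3 CPM in the other subsets. Sirt1 had 33.9 and 45.6 CPM, against 18.3 and 26.2 CPM. Both genes were at their highest in this subset in each library, although their intervals overlapped those of the monocyte subset in WQ-2101 and in vehicle. The Sirt1 interval also overlapped that of the Fn1-Hopx subset in WQ-2101. Tet3, a methylcytosine oxidase gene, had 42.4 CPM in WQ-2101 and 39.4 CPM in vehicle, against 71.5 and 68.2 CPM in the other subsets. Prmt1 had 45.2 and 42.8 CPM, against 71.6 and 76.6 CPM. Ezh2 had 17.3 and 17.1 CPM, against 29.2 and 30.0 CPM, and Kdm2b 12.1 and 14.0 CPM, against 24.0 and 24.5 CPM. The median of all genes of at least 20 CPM was itself lower in this subset, by a log2 ratio of -0.16 in WQ-2101 and -0.14 in vehicle. Scaled to that median, Kdm5b and Sirt1 still passed and the 4 lower members did not, while Dnmt3a became a call for lower level in the Fn1-Hopx subset.

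**Figure D4:**
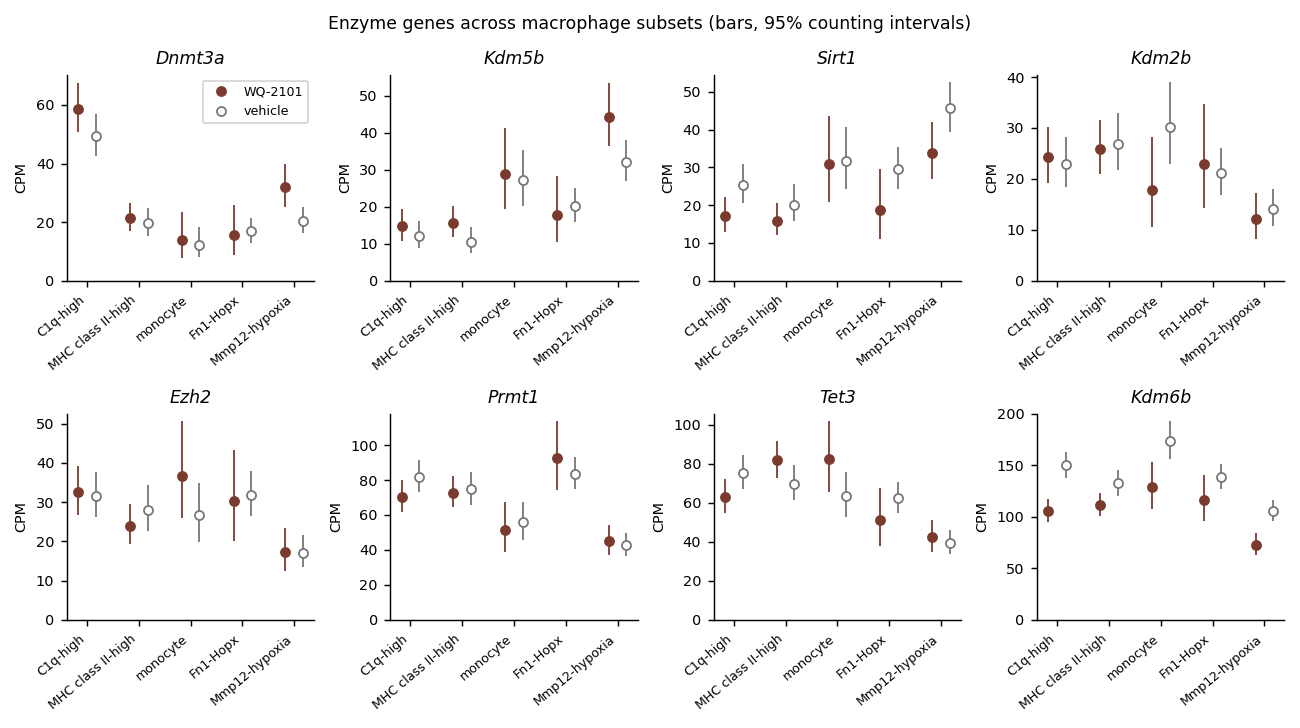
CPM of 8 enzyme genes in 5 macrophage subsets; filled points are the WQ-2101 library, open points the vehicle library and bars 95% counting intervals. Dnmt3a is highest in C1q-high cells (58.6 and 49.5 CPM), Kdm5b and Sirt1 in Mmp12-hypoxia cells, and Kdm6b is lower in WQ-2101 than in vehicle in each subset.

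Between treatments within a subset, few members passed 1.5-fold on CPM plus 5. None passed in C1q-high cells (2.38% of genes higher and 1.45% lower), in MHC class II-high cells (2.72% higher and 0.946% lower) or in cycling macrophages (3.62% higher and 1.05% lower). None was lower in Fn1-Hopx cells (3.32% of genes lower), in Mmp12-hypoxia cells (3.28% lower) or in cells of no clear subset (0.715% lower). Ezh1 was higher in WQ-2101 monocyte subset cells, at 27.8 CPM against 13.3 CPM in vehicle (28 and 26 UMIs; ratio interval 1.18 to 3.71; 6.69% of 9144 genes higher). It was also higher in Fn1-Hopx cells, at 28.1 CPM in WQ-2101 and 10.4 CPM in vehicle (1.60 to 4.49; 7.06% of 9227 genes higher). In C1q-high cells Ezh1 was at 16.15 against 9.996 CPM (1.047 to 2.515), short of 1.5-fold only on CPM plus 5. Its interval also lay above 1 in cycling macrophages (1.123 to 1.991) and in cells of no clear subset (1.053 to 1.719). The Ezh1 interval included 1 in MHC class II-high and Mmp12-hypoxia cells. Kdm4b was higher in WQ-2101 in Fn1-Hopx cells, at 17.7 against 7.88 CPM (1.17 to 4.18), and in Mmp12-hypoxia cells, at 20.6 against 10.5 CPM (1.29 to 3.02; 4.19% of 8996 genes higher). These calls rest on 17 to 51 UMIs a library. Dnmt3a was higher in WQ-2101 cells of no clear subset, at 38.5 against 21.6 CPM (279 and 228 UMIs; 1.49 to 2.14; 2.15% of 9227 genes higher). Those cells also had more of the C1q-high markers, with a median of 53.9 per 10000 UMIs in WQ-2101 and 37.7 in vehicle. In Mmp12-hypoxia cells Dnmt3a was at 31.9 against 20.4 CPM (1.135 to 2.142), short of 1.5-fold on CPM plus 5. Their C1q-high marker medians were 19.5 in WQ-2101 and 4.88 in vehicle. The Dnmt3a interval included 1 in every other subset and in cycling macrophages. The part of these markers in the Dnmt3a differences was not tested. Kdm2b was lower in WQ-2101 monocyte subset cells, at 17.9 against 30.2 CPM (18 and 59 UMIs; 4.41% of genes lower), with an interval that included 1. Kdm6b stayed under 1.5-fold in each of the 5 subsets and had the lower level in WQ-2101 in all of them, with 73.0 against 106 CPM in Mmp12-hypoxia cells and 129 against 174 CPM in the monocyte subset. Its interval included 1 in the Fn1-Hopx subset alone.

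Other genes of the same pathways were read from lists in the same way. Among 30 other writers, 29 were measured in macrophages and 1 was past 1.5-fold. This was Setd7, which encodes an H3 lysine 4 monomethyltransferase, with 29.6 CPM in WQ-2101 and 17.6 CPM in vehicle (1.51 to 1.88). It was higher in T cells too, at 77.1 against 38.4 CPM (1.51 to 2.69), and nearly level in tumour cells, at 52.4 against 49.0 CPM. None of 12 measured other erasers, 17 complex subunits or 7 genes of cofactor supply passed in macrophages. In tumour cells 0 of 30 other writers, 16 other erasers, 18 complex subunits and 10 cofactor genes passed. In T cells 1 of 30 other writers was higher and 1 lower, 1 of 15 other erasers was higher and 1 lower, and 1 of 17 complex subunits was higher.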

How the data were processed

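Whole dissociated CT26 tumours were measured by 3′ droplet single-cell RNA sequencing, with 1 WQ-2101 and 1 vehicle library. The authors deposited raw UMI counts per gene and barcode, 185587327 in total for WQ-2101 and 184754398 for vehicle. Per the file headers the count tables come from Cell Ranger 7.2.0. Per the submitters' processing notes the tool was Cell Ranger 2.2.2 and the genome build GRCm38. No source used here states the annotation release, whether introns were counted, or a step against doublets.

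Barcodes were kept with at least 500 UMIs, 300 genes and at most 15% mitochondrial UMIs. Scrublet calls (753 in WQ-2101 and 545 in vehicle) were removed, with scanpy 1.11.5 and Python 3.11.15. A cell got a class where its marker UMIs passed that class's gate and reached 5 times the scaled score of any other gate passed. The marker genes, members and gene lists were chosen with earlier results of these data known, and gate levels were set after the data were seen. Some markers were left out of gates because other classes carried them. A subset needed a score 1.5 times the next.

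UMIs were summed per class and library and divided by the class total (CPM). Intervals are exact 95% Poisson limits or, for a ratio of CPM, exact conditional binomial limits (scipy 1.17.1). Log2 ratios use CPM plus 5, and a difference was called at 1.5-fold among genes averaging at least 5 CPM. UMIs of a cell are not independent replicates of a treatment. The calling step was tested on simulated counts that held counting error only, with changes larger than 1.5-fold in genes well above 5 CPM. That test does not cover smaller changes, genes near 5 CPM, small classes or differences between libraries. Genes were named by a rule: members past 1.5-fold with an interval leaving out 1, the 5 highest and 5 lowest in macrophages and in tumour cells, the 3 at each end in T cells, the 10 widest across classes, and those differing by cycling state or subset in both libraries. Exon overlaps came from GENCODE vM21 and promoters from RefSeq. Alternatives changed scaling, filters, gates, pseudocount and free RNA.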

Additional observations from a re-analysis of the deposited data

Results flagged for a closer look

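For 5 members the direction in macrophages and monocytes was opposite to that in tumour cells, with both counting intervals leaving out 1. These were 5 of 39 members, where 11.0% of the 8510 genes measured in both classes met the same rule. The difference between the classes was not tested, and each class is 1 pair of libraries. Each value below is the log2 ratio of WQ-2101 over vehicle in macrophages minus that in tumour cells. It was 0.314 for Suz12, with 72.6 CPM in WQ-2101 and 63.0 CPM in vehicle macrophages and 136 and 149 CPM in tumour cells. It was 0.303 for Suv39h1, with 11.6 and 9.53 CPM in macrophages and 27.3 and 30.0 CPM in tumour cells. Kdm1a followed at 0.255, with 44.9 and 38.9 CPM in macrophages and 117 and 123 CPM in tumour cells. Kdm5c, the gene of an H3 lysine 4 demethylase, was at 0.215, with 60.0 and 54.7 CPM in macrophages and 46.4 and 49.8 CPM in tumour cells. Suz12 and Suv39h1 were also higher in cycling cells, which made up 18.2% of WQ-2101 and 14.4% of vehicle macrophages and 61.0% of WQ-2101 and 56.3% of vehicle tumour cells. Dot1l was at -0.203, from 84.3 CPM in WQ-2101 and 89.3 CPM in vehicle macrophages and from 51.4 and 46.8 CPM in tumour cells. The part of division state in these values was not tested. None of the 5 reached 1.5-fold in either class.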

How the results depend on the processing

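No paired analysis was possible because each group holds 1 library, and for the same reason no library could be left out. Under 15 other settings and 1 more added after seeing the data (2 clusters rich in mixed droplets left out), the count of members past 1.5-fold was 0 in macrophages and in tumour cells each time. In T cells it was 1, Kdm6b, with clusters in place of gates, with cells weighted alike, with cycling states at the same share, with free RNA subtracted and with barcodes of both libraries left out. The member median kept its sign in all 16, between 0.03 and 0.07 in macrophages, between -0.12 and -0.06 in tumour cells and between 0.03 and 0.08 in T cells. The 5 deacetylase genes were below 0 in tumour cells in each, and in macrophages except with clusters (4 of 5) or cells weighted alike (3 of 5). The 10 differences between macrophage subsets became 16 with a pseudocount of 1 CPM (an alternative added after seeing the data) and 7 with median-of-ratios scaling, also added then. None of the named values changed sign, and 19 of 476 moved beyond counting error or, for subsets, beyond the gap between libraries. One library per group, unequal depth, mixed droplets in the WQ-2101 library and low T cell counts limit every comparison between treatments.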

Other observations

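Levels of some members in classes too small to compare between treatments are given here without intervals and rest on few cells. Neutrophils, 90 in WQ-2101 and 212 in vehicle, had 230 and 273 CPM of Tet2, 230 and 305 CPM of Kdm6b and 115 and 158 CPM of Hdac4, a class IIa deacetylase gene. Macrophages had 119 and 104 CPM of Tet2, 110 and 141 CPM of Kdm6b and 49.5 and 51.5 CPM of Hdac4. The neutrophils had medians of only 970 UMIs in WQ-2101 and 1017 in vehicle. Macrophage and monocyte markers summed to 4296 and 5111 CPM in them. Dendritic cells, 95 and 128, had 93.1 and 90.3 CPM of Kdm4a, against 19.0 and 15.7 CPM in macrophages, and 120 and 94.5 CPM of Kdm2b. The 211 B cells of the WQ-2101 library had 110 CPM of Kdm2b, and the vehicle library held 8 B cells.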
